A study of Homo sapiens with 24 samples.

Results

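The mRNAs described here encode 9 proteins of iron homeostasis: the ferritin chains FTL and FTH1, transferrin (TF), its receptors TFRC and TFR2, the hormone hepcidin (HAMP), the iron regulatory proteins ACO1 and IREB2, and the ferroxidase ceruloplasmin (CP). They were listed by name for their roles in iron handling, out of 58676 gene rows, with earlier results of these data known. All 9 passed the filter on low counts (a counts-per-million value, CPM, no lower than 1 in 2 or more libraries) that left 13136 genes for testing. The cells were HepG2, an established cell line from a human liver tumour. They had been transfected with a negative control siRNA, siControl, or with siRNA to lower 1 of the related RNA-binding proteins IGF2BP1, IGF2BP2 and IGF2BP3, and these groups are called siIGF2BP1, siIGF2BP2 and siIGF2BP3. All cells were reseeded after transfection and grown for 48 h. Actinomycin D, which stops transcription, was then present at 5 µg/ml for the last 0, 3 or 6 h before collection, so that the 0 h cells had no time of exposure, and each transfected plate had been divided over the smaller plates of the time points. Polyadenylated RNA was sequenced with ERCC synthetic RNA added per amount of purified total RNA, which cannot account for cell number, and the 12 groups of siRNA and time hold 2 libraries each.

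Gene reads ranged from 31843248 to 74252042 per library and ERCC reads from 50889 to 119088. The targeted mRNAs were first examined as a check of the labels. Over the 3 time points, IGF2BP1 was left at 17.7% of its siControl level in siIGF2BP1, IGF2BP2 at 22.9% in siIGF2BP2 and IGF2BP3 at 28.7% in siIGF2BP3. All 10 hepatocyte and HepG2 markers, TF among them, had a mean CPM of at least 1, with a summed level of 67400 to 100000 CPM. Of the erythroid markers 0 of 5 reached 1 CPM (sum 0 to 0.217), of the endothelial markers 0 of 5 (0.934 to 2.7), of the macrophage markers 1 of 5 (CD14, sum 0.82 to 2.11), and of the stellate or fibroblast markers 2 of 5 (ACTA2 and PDGFRB, sum 36.2 to 55.4). Nothing in the labels says that the 2 libraries of a group came from separate transfections, so p-values measure only the spread between these libraries, which may be technical. In these bulk samples, fewer cells and less RNA per cell cannot be told apart.

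Cells take up iron mainly as transferrin bound to the transferrin receptor TFRC, store it inside shells of the ferritin heavy (FTH1) and light (FTL) chains, and release it through ferroportin (SLC40A1), with ceruloplasmin oxidising the exported iron. When iron is scarce, the iron regulatory proteins IRP1 (encoded by ACO1) and IRP2 (encoded by IREB2) bind a short hairpin, the iron-responsive element. In a 5′ UTR, as in ferritin mRNAs, this binding blocks translation, and in the 3′ UTR of TFRC it protects the mRNA from decay. Hepatocytes also make hepcidin, which removes ferroportin from cell surfaces, and TFR2 takes part in sensing iron-loaded transferrin upstream of HAMP. IGF2BP proteins bind many mRNAs and are known as regulators of their stability and translation.

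Matches of the members to the hairpin core of the iron-responsive element are shown here, and binding by the iron regulatory proteins was not tested. They were found in the canonical transcripts by a search on the transcript strand for a C, 5 bases, the loop CAGTGN and 5 bases that pair with the first 5, with G to T pairs allowed. The capitals mark the unpaired C of the bulge and the 6 bases of the loop. Each hairpin is given 5′ to 3′ with 5 bases on either side.
FTL: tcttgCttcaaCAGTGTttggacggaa
FTH1: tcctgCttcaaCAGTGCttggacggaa
TFRC site 1: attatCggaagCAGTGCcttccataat
TFRC site 2: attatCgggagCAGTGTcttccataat
TFRC site 3: tgtatCggagaCAGTGAtctccatatg
TFRC site 4: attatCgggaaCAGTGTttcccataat
TF: gaatgCattttCAGTGAaagattataa

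The FTL site lies in the 5′ UTR at chr19:48965336-48965362 (hg38, plus strand), and the FTH1 site in the 5′ UTR at chr11:61967575-61967601 (minus strand). The 4 TFRC sites lie in the 3′ UTR on the minus strand, at chr3:196050980-196051006, chr3:196050576-196050602, chr3:196050511-196050537 and chr3:196050464-196050490. The match in TF lies at chr3:133792674-133792700 (plus strand), in an annotated 3′ UTR of 18021 bases, and is a match of letters and pairing only. Of 20457 canonical coding transcripts searched, 143 (0.699%) held such a match in a UTR, and TFRC, with 4, had the most. Among tested genes the share was 99 of 11386 (0.869%). No match stood in the UTRs or coding sequences of TFR2, HAMP, ACO1, IREB2 or CP, which says only that these letters are not in those windows. In the wider iron pathway the 5′ UTR of SLC40A1 (chr2:189580662-189580688, minus strand) held 1 match.
SLC40A1: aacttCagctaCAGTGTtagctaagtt

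The genes lie as follows in hg38: FTL (ENSG00000087086.14) at chr19:48965309-48966879, plus strand. FTH1 (ENSG00000167996.15) lies at chr11:61959718-61967634, minus strand, TFRC (ENSG00000072274.12) at chr3:196012511-196082153, minus strand, and TFR2 (ENSG00000106327.12) at chr7:100620416-100642779, minus strand. TF (ENSG00000091513.15) lies at chr3:133746040-133796641, plus strand, HAMP (ENSG00000105697.8) at chr19:35280716-35285143, plus strand, and ACO1 (ENSG00000122729.18) at chr9:32384603-32454769, plus strand. IREB2 (ENSG00000136381.12) lies at chr15:78437431-78501453, plus strand, and CP (ENSG00000047457.13) at chr3:149162410-149221829, minus strand.

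Levels of different genes were compared per length, as CPM per kilobase of exon (RPKM), in siControl at 0 h. FTL was highest at 4536 ± 3.84 RPKM (SD, n = 2) and FTH1 followed at 1065 ± 10.1 RPKM. TF came next at 153 ± 5.78 RPKM and TFRC at 30.1 ± 0.788 RPKM. CP was at 15.1 ± 0.681, ACO1 at 11.3 ± 0.11 and IREB2 at 10.3 ± 0.203 RPKM. HAMP (4.49 ± 0.742 RPKM) and TFR2 (4.29 ± 0.405 RPKM) were lowest, and they were the only neighbours in this order whose libraries overlapped. Over the canonical transcript alone the order of the first 4 was the same, but HAMP, whose canonical transcript has 406 bases, moved up to 31.7 RPKM, above CP (24), IREB2 (17.5), ACO1 (11.5) and TFR2 (7.52). The place of HAMP therefore depends on the length used. Per base of coding sequence HAMP was again above IREB2, at 50.4 against 38.3 RPKM. The value of TF, whose annotated 3′ UTR has 18021 bases, also depended on the length used, though its place did not. Per base of coding sequence TF was at 1904 RPKM, below FTL (7483) and FTH1 (3868) and above TFRC (229).

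The first comparison asked which members differed from siControl before transcription was stopped. Values within a gene are given as TMM-scaled CPM, a differential test is called at an adjusted p under 0.05 over all 13136 genes (edgeR), and the 3 knockdowns share the same siControl libraries. In siIGF2BP1, 6 of 9 members were called at 0 h, 5 higher and 1 lower, where 15.9% of all genes tested were called. In siIGF2BP2, 5 of 9 were called, 4 higher and 1 lower, against 12.1% of all genes. In siIGF2BP3, 4 of 9 were called, 2 higher and 2 lower, against 9.39% of all genes. The median log2 difference of the members was 0.18, 0.13 and 0.01 in the same order, beside 0.01, 0.02 and 0 over all genes. When the scale was set by ERCC reads in place of TMM, 2 members were called in each knockdown, where 4.94%, 5.57% and 3.59% of all genes were called. Those were FTL in all 3, CP in siIGF2BP1 and HAMP in siIGF2BP2 and siIGF2BP3.

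**Figure D1:**
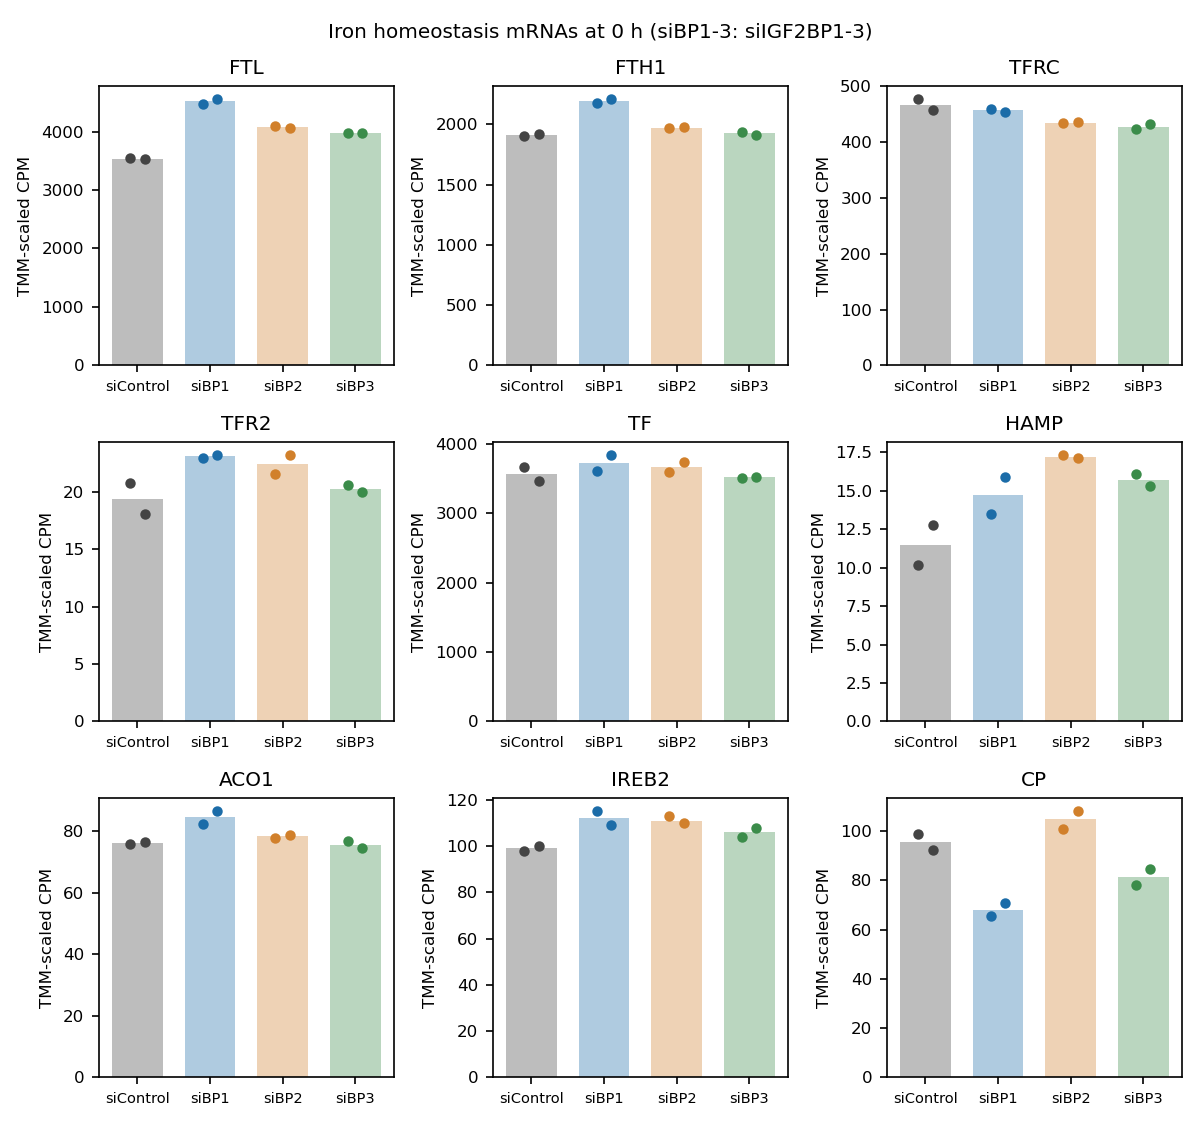
TMM-scaled CPM (vertical axis, from 0) of each iron homeostasis mRNA at 0 h of actinomycin D, with 1 point per library and the bar at the mean of 2 libraries, in siControl, siIGF2BP1 (siBP1), siIGF2BP2 (siBP2) and siIGF2BP3 (siBP3). FTL lies above both siControl libraries in all 3 knockdowns, and CP is lowest in siIGF2BP1, at 65.4 and 70.9 CPM against 98.7 and 92.1 in siControl.

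FTL, the ferritin light chain that promotes mineralisation of stored iron, was at 3539 and 3525 CPM in siControl at 0 h. It was at 4479 and 4551 CPM in siIGF2BP1, at 4098 and 4065 in siIGF2BP2 and at 3982 and 3969 in siIGF2BP3. All 6 knockdown libraries lay above both siControl libraries, and siIGF2BP1 lay above the other 2 knockdowns without overlap. The log2 difference was 0.35 in siIGF2BP1 (SE 0.0217, adjusted p = 3.1e-15), 0.21 in siIGF2BP2 (adjusted p = 2.64e-09) and 0.17 in siIGF2BP3 (adjusted p = 4.66e-07). These 3 calls held without each library in turn and on the ERCC scale, where the values were 0.32, 0.29 and 0.25. FTL was also called higher at 3 h (0.29, 0.14 and 0.11) and at 6 h (0.27, 0.10 and 0.06) in the same order of knockdowns. The 6 h value in siIGF2BP3 was lost without any 1 of its 4 libraries (0.05 to 0.07, adjusted p 0.0614 to 0.218), and that in siIGF2BP2 was lost without its 6 h replicate 2 (0.07, adjusted p = 0.0714). The 3 h value in siIGF2BP2 was 0.20 and not called on the ERCC scale (adjusted p = 0.0962).

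FTH1, the ferritin heavy chain with ferroxidase activity, was at 1901 and 1917 CPM in siControl at 0 h and at 2180 and 2207 in siIGF2BP1. Both siIGF2BP1 libraries stood above those of all other groups at that time. The difference was 0.20 on the log2 scale (SE 0.0232, adjusted p = 2.42e-08), and FTH1 was also called higher in siIGF2BP1 at 3 h (0.12, adjusted p = 9.23e-05) and 6 h (0.14, adjusted p = 9.29e-06). With ERCC scaling the 0 h and 3 h values were 0.17 each and were not called (adjusted p = 0.276 and 0.184). FTH1 was at 1970 and 1975 CPM in siIGF2BP2 (log2 difference 0.05, adjusted p = 0.208) and at 1939 and 1912 in siIGF2BP3 (0.01, adjusted p = 0.836). Reads of ferritin can also fall on processed pseudogenes. The 25 annotated FTH1 pseudogene rows together held 0.745% to 1.29% of the reads of FTH1 per library, and the 16 FTL pseudogene rows held 0.0109% to 0.035% of those of FTL.

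TFRC, which brings transferrin-bound iron into cells, was lower at 0 h in a pair of knockdowns. It was at 477 and 457 CPM in siControl, at 459 and 454 in siIGF2BP1, at 435 and 436 in siIGF2BP2 and at 423 and 433 in siIGF2BP3. The siIGF2BP2 and siIGF2BP3 libraries lay below both siControl libraries, while those of siIGF2BP1 overlapped with them. The log2 difference was -0.03 in siIGF2BP1 (adjusted p = 0.608), -0.10 in siIGF2BP2 (SE 0.0322, adjusted p = 0.0311, called) and -0.13 in siIGF2BP3 (SE 0.0323, adjusted p = 0.00786, called). On the ERCC scale the values were -0.07, -0.02 and -0.05, and none was called. The siIGF2BP2 call was lost without siControl replicate 1 (-0.07, adjusted p = 0.371) or either siIGF2BP2 library (-0.10, adjusted p 0.129 and 0.166), the siIGF2BP3 call without siControl replicate 1 (-0.10, adjusted p = 0.201) or siIGF2BP3 replicate 1 (-0.11, adjusted p = 0.115). In the separate libraries of 3 h the values were -0.10, -0.20 and -0.19 in siIGF2BP1, siIGF2BP2 and siIGF2BP3, all called, but -0.05, -0.15 and -0.04 on the ERCC scale, where none was called (adjusted p = 0.777, 0.328 and 0.746). At 6 h they were -0.11, -0.16 and -0.18, all called on the TMM scale, but 0.06, 0.12 and 0.13 and not called on the ERCC scale. The ERCC scale moved the median of all genes at 6 h to 0.17, 0.27 and 0.31, so TFRC stayed below the median gene on both. The siIGF2BP2 and siIGF2BP3 calls at 3 h and 6 h held without each library in turn, and those of siIGF2BP1 were lost without siControl 3 h replicate 2 (-0.08), either siIGF2BP1 3 h library (-0.11 and -0.09), siControl 6 h replicate 2 (-0.06) or siIGF2BP1 6 h replicate 1 (-0.08).

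TFR2, the second transferrin receptor, was at 20.8 and 18.1 CPM in siControl at 0 h, at 23.0 and 23.2 in siIGF2BP1, at 21.6 and 23.2 in siIGF2BP2 and at 20.6 and 20.0 in siIGF2BP3. The siIGF2BP1 and siIGF2BP2 libraries lay above those of siControl. The log2 difference was 0.25 in siIGF2BP1 (SE 0.0713, adjusted p = 0.0106) and 0.21 in siIGF2BP2 (SE 0.0709, adjusted p = 0.0484), and 0.07 in siIGF2BP3 (adjusted p = 0.672). Without siControl replicate 2, the lower control library, the values fell to 0.15 and 0.11 and neither was called (adjusted p = 0.299 and 0.564). With ERCC scaling they were 0.22 and 0.28 and not called. Both calls were also lost without either of their own knockdown libraries (0.26 and 0.25 in siIGF2BP1, 0.26 and 0.16 in siIGF2BP2). TFR2 was called in 1 later comparison, siIGF2BP1 at 6 h (0.22, adjusted p = 0.0203), which was lost without siControl 6 h replicate 2 (0.18) or either siIGF2BP1 6 h library (0.23 and 0.20).

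TF, the plasma carrier that hepatocytes secrete, was among the most read of the members, at 3674 and 3466 CPM in siControl at 0 h. It was at 3619 and 3839 CPM in siIGF2BP1, at 3596 and 3736 in siIGF2BP2 and at 3518 and 3524 in siIGF2BP3. Every knockdown group overlapped with siControl. The 95% interval of the log2 difference was 0.01 to 0.12 in siIGF2BP1, -0.02 to 0.10 in siIGF2BP2 and -0.08 to 0.04 in siIGF2BP3, and TF was not called in any knockdown at 0 h, 3 h or 6 h on the TMM scale. Reads of SRPRB, a neighbour that shares 122 exon bases with TF on the same strand, amounted to 1.56% of the TF reads.

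ACO1, the cytosolic aconitase that becomes IRP1 when it loses its iron-sulfur cluster, was at 75.9 and 76.6 CPM in siControl at 0 h and at 82.5 and 86.5 in siIGF2BP1. It was at 77.9 and 78.9 CPM in siIGF2BP2 and at 76.7 and 74.7 in siIGF2BP3. ACO1 was called in siIGF2BP1 alone of the 3, with a log2 difference of 0.15 at 0 h (SE 0.0441, adjusted p = 0.0188), 0.17 at 3 h (adjusted p = 0.00387) and 0.14 at 6 h (adjusted p = 0.0173). The 0 h call was lost without either siControl library (0.14 and 0.15, adjusted p = 0.118 and 0.0784) or siIGF2BP1 replicate 2 (0.11, adjusted p = 0.204). The 3 h call was lost without siControl 3 h replicate 1 (0.14) or siIGF2BP1 3 h replicate 1 (0.15), and the 6 h call without siControl 6 h replicate 1 (0.12) or siIGF2BP1 6 h replicate 2 (0.10). With ERCC scaling the values at 0 h (0.12) and 3 h (0.22) were not called.

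IREB2 encodes IRP2, which is removed by the ubiquitin ligase FBXL5 when iron is plentiful. It was at 98.0 and 100 CPM in siControl at 0 h, at 115 and 109 in siIGF2BP1, at 113 and 110 in siIGF2BP2 and at 104 and 108 in siIGF2BP3. All 6 knockdown libraries lay above both siControl libraries. The log2 difference was 0.18 in siIGF2BP1 (SE 0.0538, adjusted p = 0.0194), 0.17 in siIGF2BP2 (SE 0.0536, adjusted p = 0.0336) and 0.09 in siIGF2BP3 (adjusted p = 0.348). The siIGF2BP1 call at 0 h was lost without either siControl library (0.16 and 0.19) or siIGF2BP1 replicate 1 (0.14), and the siIGF2BP2 call without any 1 of its 4 libraries (0.15 to 0.19, adjusted p 0.0872 to 0.24). Neither was called on the ERCC scale (0.15 and 0.25).

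The later libraries gave larger differences for IREB2. At 3 h it was at 63.9 and 62.7 CPM in siControl against 84.7 and 86.5 in siIGF2BP1, 76.6 and 73.8 in siIGF2BP2 and 70.9 and 78.4 in siIGF2BP3. At 6 h it was at 37.1 and 41.7 CPM against 54.6 and 52.5, 46.4 and 50.6, and 42.5 and 49.8 in the same order. No knockdown library at either time fell as low as the siControl libraries of that time. The log2 difference at 3 h was 0.44 (SE 0.0576, adjusted p = 2.67e-07), 0.25 (adjusted p = 0.00148) and 0.23 (adjusted p = 0.00381), and at 6 h it was 0.44 (SE 0.0616, adjusted p = 6.33e-07), 0.30 (adjusted p = 0.000305) and 0.23 (adjusted p = 0.00958). All 6 were also called on the ERCC scale, at 0.48, 0.31 and 0.39 at 3 h and 0.61, 0.58 and 0.53 at 6 h. That scale called 8.95%, 6.84% and 15% of all genes at 3 h, with medians of 0.04, 0.06 and 0.15. At 6 h it called 26.9%, 49.4% and 53.3% of all genes, with medians of 0.17, 0.27 and 0.31. On the TMM scale the siIGF2BP1 and siIGF2BP2 calls held without each library in turn. In siIGF2BP3 the 3 h call was lost without its replicate 2 (0.16, adjusted p = 0.0924), and the 6 h call without siControl 6 h replicate 1 (0.14, adjusted p = 0.208) or siIGF2BP3 6 h replicate 2 (0.11, adjusted p = 0.344).

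HAMP, the hepcidin mRNA, was the least read member, with 651 to 1230 reads per library at 0 h. It was at 10.2 and 12.8 CPM in siControl, at 13.5 and 15.9 in siIGF2BP1, at 17.3 and 17.1 in siIGF2BP2 and at 16.1 and 15.3 in siIGF2BP3. All 6 knockdown libraries lay above both siControl libraries, which themselves differed more than those of any other member relative to their mean. The log2 difference was 0.58 in siIGF2BP2 (SE 0.146, adjusted p = 0.00544) and 0.45 in siIGF2BP3 (SE 0.147, adjusted p = 0.0461), both called, and 0.35 in siIGF2BP1 (SE 0.147, adjusted p = 0.115). On the ERCC scale the 2 calls held, at 0.67 and 0.54. Without siControl replicate 1, the lower control library, they fell to 0.42 (adjusted p = 0.185) and 0.30 (adjusted p = 0.492). They were also lost without siIGF2BP2 replicate 1 (0.57, adjusted p = 0.0622) and without either siIGF2BP3 library (0.41 and 0.48, adjusted p = 0.239 and 0.139).

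At 3 h HAMP was at 2.17 and 2.01 CPM in siControl, against 3.88 and 2.71 in siIGF2BP1, 3.65 and 3.08 in siIGF2BP2 and 3.20 and 3.63 in siIGF2BP3, on 86 to 218 reads per library. The groups did not overlap with siControl, and the log2 differences of 0.66, 0.69 and 0.70 were called (adjusted p = 0.0195, 0.0131 and 0.0155). Each was lost without either siControl 3 h library (0.72 and 0.61, 0.74 and 0.63, 0.75 and 0.64 in the same order) and without 1 library of its own, siIGF2BP1 replicate 1 (0.38), siIGF2BP2 replicate 1 (0.57) or siIGF2BP3 replicate 2 (0.62). At 6 h HAMP had 29 to 62 reads per library and was not called in any knockdown, with log2 differences of 0.41, 0.39 and 0.21 and SEs of 0.277 to 0.305.

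CP, the multicopper ferroxidase that liver secretes, was the member with the largest decrease. It was at 98.7 and 92.1 CPM in siControl at 0 h, at 65.4 and 70.9 in siIGF2BP1, at 101 and 108 in siIGF2BP2 and at 78.0 and 84.5 in siIGF2BP3. The siIGF2BP1 and siIGF2BP3 libraries lay below both siControl libraries, and those of siIGF2BP2 lay above. The log2 difference was -0.49 in siIGF2BP1 (SE 0.0493, adjusted p = 1.1e-09), which placed CP below all but 2.9% of genes, and -0.23 in siIGF2BP3 (SE 0.049, adjusted p = 0.00111). In siIGF2BP2 it was 0.13 (SE 0.048, adjusted p = 0.0658). The siIGF2BP1 call held without each library in turn and on the ERCC scale (-0.52). The siIGF2BP3 call was lost without siControl replicate 1 (-0.18, adjusted p = 0.0695) or siIGF2BP3 replicate 1 (-0.17, adjusted p = 0.0804), and on the ERCC scale (-0.15, adjusted p = 0.381).

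The order of the knockdowns for CP was the same in the later libraries. At 3 h the log2 difference was -0.51 in siIGF2BP1 (adjusted p = 3.52e-10), 0.16 in siIGF2BP2 (adjusted p = 0.0155) and -0.10 in siIGF2BP3 (adjusted p = 0.177). At 6 h it was -0.57 (adjusted p = 1.31e-11), 0.15 (adjusted p = 0.0205) and -0.22 (adjusted p = 0.000996), and the last of these was 0.08 and not called on the ERCC scale. The siIGF2BP2 calls were lost at 3 h without siControl 3 h replicate 2 (0.11) or either siIGF2BP2 3 h library (0.15 and 0.18), and at 6 h without siControl 6 h replicate 2 (0.12) or siIGF2BP2 6 h replicate 1 (0.13), and the 3 h value was not called on the ERCC scale (0.22, adjusted p = 0.105). CP shares 1420 exon bases with HPS3, a gene on the opposite strand whose reads amounted to 31.1% of those of CP. HPS3 was called higher in siIGF2BP1 at 0 h (0.22, adjusted p = 0.0144), 3 h (0.35) and 6 h (0.51), the opposite direction to CP. In siIGF2BP2 HPS3 was called higher at 3 h (0.25, adjusted p = 0.00438) and 6 h (0.29, adjusted p = 0.00111), the same direction as CP. In siIGF2BP3 it was called higher at 3 h (0.19, adjusted p = 0.0462) and 6 h (0.24, adjusted p = 0.00924), where CP was at -0.10 and -0.22. The paper describes a stranded library kit and an alignment set for strand. Whether counting used strand is not given in the sources used here. The part of HPS3 in the CP values was not tested.

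In the separate libraries of 3 h, 7 of 9 members were called in siIGF2BP1 against 20.9% of all genes, 5 in siIGF2BP2 against 17% and 4 in siIGF2BP3 against 16%. At 6 h, 7 members were called in siIGF2BP1 against 24.3% of all genes, 4 in siIGF2BP2 against 18.7% and 4 in siIGF2BP3 against 18.5%. FTL, TFRC, IREB2 and CP made up the 4 called in siIGF2BP2 and in siIGF2BP3 at 6 h. In siIGF2BP1, FTL, FTH1, TFRC, ACO1, IREB2 and CP were called at both later times. On the ERCC scale at 6 h, 8 members were called in siIGF2BP2, where 49.4% of all genes were called, and FTH1 (0.28), TF (0.26) and ACO1 (0.27), which had not been called in siIGF2BP3, were higher there, where 53.3% of all genes were called and their median was 0.31.

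**Figure D2:**
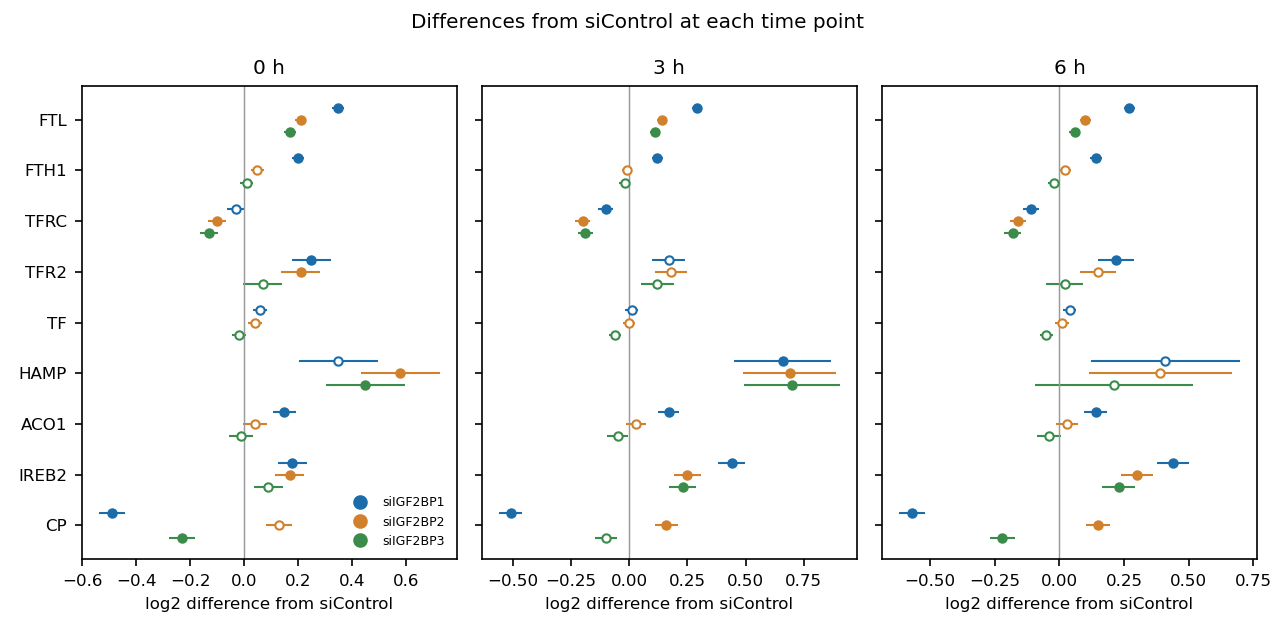
Log2 difference from siControl (horizontal axis, TMM scale) of each member at 0, 3 and 6 h, with bars of 1 SE, filled points for an adjusted p under 0.05 and open points otherwise. FTL is higher in all 9 comparisons (0.06 to 0.35), TFRC lies below 0 in all 9 on this scale (-0.20 to -0.03), and CP in siIGF2BP1 lies at -0.49, -0.51 and -0.57.

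Differences between the knockdowns at 0 h were tested directly. Between siIGF2BP1 and siIGF2BP2, 3 of 9 members were called, against 18.7% of all genes: FTL (log2 0.15, adjusted p = 2.76e-06) and FTH1 (0.15, adjusted p = 3.68e-06) were higher in siIGF2BP1, and CP was lower (-0.62, SE 0.0494, adjusted p = 1.68e-12). Between siIGF2BP1 and siIGF2BP3, 6 of 9 were called, against 14.3% of all genes. FTL (0.18), FTH1 (0.19), ACO1 (0.16), TFRC (0.09) and TF (0.08) were higher in siIGF2BP1 and CP was lower (-0.26, adjusted p = 0.00031). Between siIGF2BP2 and siIGF2BP3, CP alone was called, higher in siIGF2BP2 (0.37, adjusted p = 7.82e-07), against 9.19% of all genes.

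The CP differences were also called on the ERCC scale, at -0.73, -0.37 and 0.36 in the same order. Those of FTL, FTH1 and ACO1 kept their sign there and were not called (FTL 0.03 and 0.07, FTH1 0.04 and 0.07, ACO1 0.04 against siIGF2BP3), and those of TFRC (-0.02) and TF (-0.03) changed sign. That scale moved the median of all genes to -0.12 and -0.11 in the 2 comparisons with siIGF2BP1. The calls of FTL, FTH1 and CP held without each library in turn. The TFRC call was lost without any 1 of its 4 libraries (0.08 to 0.11, adjusted p 0.0807 to 0.279), the TF call without siIGF2BP1 replicate 2 (0.04) or either siIGF2BP3 library (0.08), and the ACO1 call without siIGF2BP1 replicate 2 (0.12) or siIGF2BP3 replicate 2 (0.14). HAMP, IREB2 and TFR2 were not called between any of the knockdowns.

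The time course was then used to follow the loss of each mRNA. Levels were set by the ERCC reads of each library, because after transcription stops most mRNAs decline, and on the CPM scale a stable mRNA then appears to rise. FTL, for instance, went from 3539 and 3525 CPM at 0 h to 6881 and 6969 CPM at 6 h in siControl, while on the ERCC scale it was at 111% and 103% of its 0 h mean. Loss over 6 h was tested as the slope on time in each condition. In siControl, 3 of 9 members declined (HAMP, IREB2 and ACO1), where 80.6% of all genes had a called slope. The median log2 change over 6 h was -0.10 for the members and -0.88 for all genes.

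HAMP was the least stable member. In siControl it fell to 13.9% and 12.9% of its 0 h mean at 3 h and to 5.72% and 2.9% at 6 h, a log2 change over 6 h of -4.64 (SE 0.336, adjusted p = 3.44e-11), with only 1.6% of genes lower. The values in the knockdowns were -4.37, -4.63 and -4.63. The half-lifetime of HAMP, from a first-order decay equation on the group means, was 1.16 h in siControl (1.07 to 1.25 over the 8 choices of 1 library at each time). It was 1.28 h (1.11 to 1.48) in siIGF2BP1, 1.18 h (1.15 to 1.2) in siIGF2BP2 and 1.23 h (1.18 to 1.29) in siIGF2BP3. The ranges of all 4 conditions overlapped, and the median over all genes with a half-lifetime was 6.22, 6.91, 6.51 and 6.98 h in the same order. In siControl the early loss of HAMP, from 0 to 3 h (-2.91), was followed by a late loss of -1.62 from 3 to 6 h, and the difference between them was not tested.

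IREB2 was the other short-lived member. In siControl it was at 47.1% and 46.1% of its 0 h mean at 3 h and at 21.4% and 22.1% at 6 h, a log2 change of -2.20 (SE 0.0952, adjusted p = 9.23e-15), with 16.8% of genes lower. Its early and its late loss were -1.10 each. In siIGF2BP1 it was at 60.6% and 57.1% at 3 h and 30.8% and 29.2% at 6 h. In siIGF2BP2 it was at 49.0% and 48.1%, then at 24.4% and 30.4%, and in siIGF2BP3 at 50% and 58.1%, then at 26.7% and 29%. Every knockdown library kept a larger share than the siControl libraries of the same time. The log2 change over 6 h was -1.74, -1.87 and -1.84, and the half-lifetime was 2.73 h in siControl (2.57 to 2.92), 3.67 h in siIGF2BP1 (3.38 to 4.03), 3.04 h in siIGF2BP2 (2.87 to 3.21) and 3.31 h in siIGF2BP3 (2.94 to 3.78). Of the 11038 genes with a half-lifetime in siControl, 19.94% had a shorter one than IREB2. The share was 27.96% of 10349, 21.51% of 11011 and 23.92% of 10224 genes after knockdown of IGF2BP1, IGF2BP2 and IGF2BP3. Genes without a half-lifetime are left out of these shares, and their number differed between conditions (1141 in siControl, then 1830, 1168 and 1955). By slope, the share of all genes tested that lay lower than IREB2 was 21.2%, 18.6% and 18.5% in the knockdowns. HAMP and IREB2 were the members called in the early loss of siControl (2 of 9, where 62.2% of all genes were called) and again in its late loss (2 of 9, where 65% of all genes were called).

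**Figure D3:**
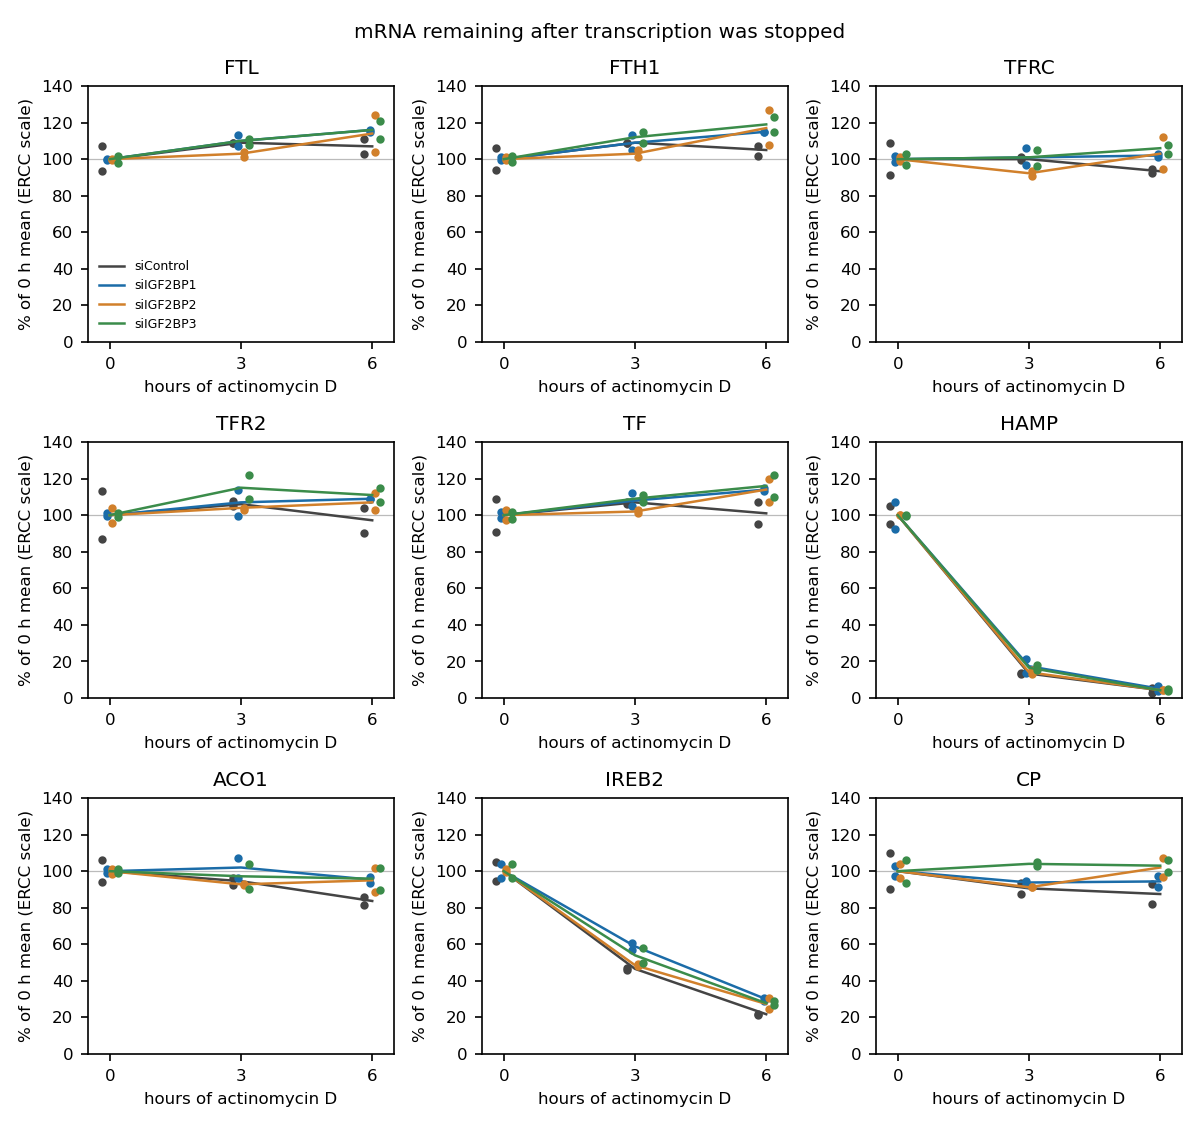
Percent of the 0 h mean on the ERCC scale (vertical axis) against hours of actinomycin D for each member, with 1 point per library, offset sideways for sight, and lines through the means of 2 libraries in each condition. HAMP falls to between 2.9% and 6.5% and IREB2 to between 21.4% and 30.8% by 6 h, while the other members stay between 81.4% and 127%.

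The remaining members were long-lived on this time scale. ACO1 was at 86.1% and 81.4% of its 0 h mean at 6 h in siControl (log2 change -0.26, SE 0.0836, adjusted p = 0.00784), a call that was lost without siControl 0 h replicate 1 (-0.19, adjusted p = 0.0843) or 6 h replicate 2 (-0.21, adjusted p = 0.0653). CP was at 93.2% and 81.9% (-0.19, adjusted p = 0.0584) and TFRC at 94.4% and 92.4% (-0.10, adjusted p = 0.291). TFRC, with its 4 matches to the hairpin in the 3′ UTR, had 90.5% of genes below it. TFR2, TF, FTH1 and FTL had log2 changes of -0.04, 0.02, 0.06 and 0.10 in siControl, and FTL lay above 97.6% of genes. Half-lifetimes of these members could not be set with precision. That of ACO1 in siControl was 28.5 h with a range of 15.5 to 218 h, and FTL and FTH1 showed no loss in any of the 8 choices in any condition.

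In the knockdowns 5 of 9 members had a called slope, 2 lower and 3 higher, where 71.7%, 73.8% and 70.1% of all genes were called in siIGF2BP1, siIGF2BP2 and siIGF2BP3. Of all 13136 genes, 353, 321 and 382 were called higher in the same order. The 2 lower members were HAMP and IREB2. The 3 higher members were FTL (0.21, 0.19 and 0.22), FTH1 (0.20, 0.23 and 0.25) and TF (0.19, 0.18 and 0.22), each relative to ERCC reads. The values of these 3 in siControl were 0.10, 0.06 and 0.02 and not called, and the slopes did not pass the test of the difference from siControl either. In siIGF2BP3 the FTH1 call held without each library in turn. Without siIGF2BP2 6 h replicate 2 the slopes in siIGF2BP2 fell to 0.06 for FTL (adjusted p = 0.441) and 0.10 for FTH1 (adjusted p = 0.189) and TF (adjusted p = 0.333). FTL was also lost without either siIGF2BP1 0 h library (0.21 and 0.20), siIGF2BP2 0 h replicate 1 (0.20), siIGF2BP3 0 h replicate 1 (0.19) or siIGF2BP3 6 h replicate 1 (0.17). FTH1 in siIGF2BP1 was lost without either 0 h library (0.20 and 0.19) or 6 h replicate 2 (0.21). TF was lost without any 1 of the 0 h and 6 h libraries of siIGF2BP1 (0.16 to 0.21), without siIGF2BP2 0 h replicate 1 (0.17) or 3 h replicate 2 (0.18), and without siIGF2BP3 0 h replicate 1 (0.18) or 6 h replicate 1 (0.15).

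Whether a knockdown altered the loss of a member was tested as the difference of its slope from that of siControl. By edgeR, 0 of 9 members were called in any knockdown, where 0.0152%, 0% and 0.0228% of all genes were called in siIGF2BP1, siIGF2BP2 and siIGF2BP3, and DESeq2 also called 0 of 9. At an unadjusted p under 0.05 there was 1 member in each, IREB2, beside 1436, 896 and 2113 of all genes. The slope difference of IREB2 was 0.46 in siIGF2BP1 (95% interval 0.18 to 0.75, adjusted p = 0.417), 0.33 in siIGF2BP2 (0.05 to 0.61, adjusted p = 0.643) and 0.36 in siIGF2BP3 (0.07 to 0.64, adjusted p = 0.277), where positive means slower loss. All genes together had a median slope difference of 0.19, 0.17 and 0.22. IREB2 lay above 91.0%, 82.2% and 79.7% of genes. In a fit of the change from 0 h to 6 h alone, the siIGF2BP1 value of 0.46 was called (adjusted p = 0.0416), where 0.655% of all genes were called.

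For HAMP the interval of the slope difference was wide, -0.74 to 1.27 in siIGF2BP1, -0.81 to 0.83 in siIGF2BP2 and -0.82 to 0.83 in siIGF2BP3. The other 7 members had slope differences between 0.09 and 0.24, and all their intervals included 0. For FTL the interval reached from -0.12 to 0.34 in siIGF2BP1, and for TFRC from -0.13 to 0.38. Between the knockdowns 0 of 9 members had a called slope difference in any of the 3 pairs (edgeR, 0% of all genes in each), with 0 members at an unadjusted p under 0.05 beside 256, 272 and 246 of all genes. DESeq2 called 1, 4 and 0 genes in those pairs.

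The wider iron pathway was described through 8 lists of 98 other genes, of which 82 passed the filter. Of the 82, 17 were higher and 2 lower at 0 h in siIGF2BP1, or 23.2% called against 15.9% of all genes. In siIGF2BP2 9 were higher and 6 lower (18.3% against 12.1%), while siIGF2BP3 had 8 and 4 (14.6% against 9.39%). The median log2 differences were 0.03, 0.04 and 0.01, near those of all genes. On the ERCC scale 4, 9 and 6 were called (4, 7 and 5 of them higher), where 4.94%, 5.57% and 3.59% of all genes were called. Heme synthesis and breakdown had the most calls in siIGF2BP1, 7 of 19, all higher. Of these HPX and HP alone were called on the ERCC scale and held without each library in turn. HMOX1 (0.19) and ALAD (0.22) were lost without any 1 of 4 libraries, BLVRA (0.15) without either siControl library or siIGF2BP1 replicate 1, UROS (0.19) without siControl replicate 1 or either siIGF2BP1 library, and FLVCR1 (0.18) without siControl replicate 1 or siIGF2BP1 replicate 2. FLVCR1 was also higher in siIGF2BP2 (0.27, adjusted p = 0.000194) and siIGF2BP3 (0.26, adjusted p = 0.000712), and both of these calls held on the ERCC scale and without each library in turn. HPX, the plasma heme carrier hemopexin, was higher in all 3 knockdowns (0.61, 0.40 and 0.38, adjusted p at most 3.34e-05), also on the ERCC scale and without each library in turn. HP, which binds free hemoglobin, was higher in siIGF2BP1 (0.46, adjusted p = 8.47e-12) and lower in siIGF2BP2 (-0.23, adjusted p = 2.3e-05, but -0.16 and not called on the ERCC scale). In siIGF2BP3 HP was higher (0.16, adjusted p = 0.00383), a call lost without replicate 2 of siControl or of siIGF2BP3. It was also lost on the ERCC scale (0.24, adjusted p = 0.0891). Reads of its near copy HPR amounted to 7.74% to 18.8% of those of HP, and how reads were split between the pair is not given in the sources used here.

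CREB3L3, a transcription factor known to act on the hepcidin gene, was higher in siIGF2BP1 (0.49, adjusted p = 2.97e-05), and the BMP receptor BMPR2 was lower in siIGF2BP3 (-0.42, adjusted p = 5.22e-05). FURIN, a protease that processes hepcidin, was higher in siIGF2BP1 (0.27, adjusted p = 0.000293, but 0.24 and not called on the ERCC scale). It was also higher in siIGF2BP2 (0.23), a call lost without siControl replicate 1 or siIGF2BP2 replicate 1 (lowest value 0.14). These and BMPR2 in siIGF2BP2 (-0.23, lost without either siControl library or siIGF2BP2 replicate 1, -0.29 to -0.16, and -0.15 and not called on the ERCC scale) were all the calls among 17 hepcidin control genes. SLC40A1, the iron exporter, was higher in siIGF2BP2 (0.44, SE 0.11, adjusted p = 0.00425), a call lost without siControl replicate 2 or siIGF2BP2 replicate 1 (lowest value 0.31), and it differed between siIGF2BP2 and siIGF2BP3 (0.72, adjusted p = 1.64e-05) and between siIGF2BP1 and siIGF2BP2 (-0.53, adjusted p = 0.000455). ISCA1, an assembly factor of iron-sulfur clusters, was lower in siIGF2BP2 (-0.48, adjusted p = 4.39e-07). BLVRB, a biliverdin reductase, was lower in siIGF2BP3 (-0.50, adjusted p = 0.0142), but not without siControl replicate 1 or either siIGF2BP3 library (-0.67 to -0.31) or on the ERCC scale (-0.42, adjusted p = 0.0888).

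The genes of iron-sulfur cluster assembly had 6, 5 and 3 calls of 25. ISCU, the assembly scaffold, was higher in siIGF2BP1 (0.20, adjusted p = 0.000657), siIGF2BP2 (0.19, adjusted p = 0.0013) and siIGF2BP3 (0.17, adjusted p = 0.0057), and the siIGF2BP3 call was lost without either siControl library (0.17). On the ERCC scale ISCU was called in siIGF2BP2 (0.27, adjusted p = 0.039). It was not called there in siIGF2BP1 (0.17, adjusted p = 0.371) or siIGF2BP3 (0.25, adjusted p = 0.0821). FDX1, a ferredoxin, was higher by 0.38, 0.32 and 0.26, which was lost in siIGF2BP2 without siControl replicate 2 (0.24) and in siIGF2BP3 without siControl replicate 2 or either of its own libraries (0.18 to 0.33). The uptake list had 2, 1 and 0 calls of 7. SLC39A14, which carries iron not bound to transferrin, was lower in siIGF2BP2 (-0.35, adjusted p = 1.81e-07, -0.27 and called on the ERCC scale) and by less in siIGF2BP1 (-0.14), where the call was lost without siControl replicate 2 or siIGF2BP1 replicate 1 (-0.22 to -0.07). The lipoprotein receptor LRP1 was higher in siIGF2BP1 (0.15), a call lost without siControl replicate 1. On the ERCC scale neither SLC39A14 (-0.17) nor LRP1 (0.12) was called in siIGF2BP1. In the storage list, NCOA4, the receptor for ferritin autophagy, was the 1 call of 4, lower in siIGF2BP2 (-0.19, adjusted p = 5.74e-05, but -0.12 and not called on the ERCC scale).

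EPAS1, whose mRNA is known to carry an iron-responsive element, was higher in siIGF2BP1 (0.19, adjusted p = 4.1e-05) and lower in siIGF2BP3 (-0.13, lost without replicate 2 of siControl or of siIGF2BP3, -0.17 to -0.10). FBXL5 was not called in any knockdown (-0.02, 0.03 and -0.04), and neither EPAS1 call held on the ERCC scale. RC3H2, one of the mRNA decay factors, was the 1 call of 6, higher in siIGF2BP1 (0.20), lost without replicate 2 of siControl or of siIGF2BP1 (0.18 to 0.22) and on the ERCC scale (0.17, adjusted p = 0.378).

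Between knockdowns, HP was higher in siIGF2BP1 than in siIGF2BP2 (0.69) and lower in siIGF2BP2 than in siIGF2BP3 (-0.40), and ISCA1 was higher in siIGF2BP1 than in siIGF2BP2 (0.47) and lower in siIGF2BP2 than in siIGF2BP3 (-0.38). CREB3L3 (0.48), the proprotein convertase FURIN (0.39) and the hypoxia factor EPAS1 (0.32) were higher in siIGF2BP1 than in siIGF2BP3, and the EPAS1 call was lost on the ERCC scale (0.21, adjusted p = 0.102).

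In siControl, 68 of the 82 pathway genes declined over 6 h and 0 rose, or 82.9% called against 80.6% of all genes, with a median log2 change of -0.66 beside -0.10 for the members and -0.88 for all genes. The mRNA decay factors fell most, 6 of 6 with a median of -3.17, among them the AU-rich element binding proteins ZFP36 (-5.17, SE 0.87) and ZFP36L2 (-4.87, SE 0.601). Hepcidin control genes came next, 15 of 17 with a median of -1.89, and ID1, a target of BMP signalling, changed by -4.55 (SE 0.678), next to the -4.64 of HAMP. FBXL5, the ligase that acts on IRP2, changed by -2.02, next to the -2.20 of IREB2. The medians were -0.95 for storage, chaperones and ferritin turnover (4 of 4 called), -0.55 for mitochondrial iron and iron-sulfur clusters (21 of 25), -0.51 for the other genes of iron-responsive-element control (2 of 3), -0.48 for heme genes (14 of 19) and -0.33 for uptake and ferrireduction (5 of 7). SLC40A1, the 1 gene tested for export, changed by -0.51. FKBP1A (0.0), HP (0.01) and CIAO2B (-0.02) changed least.

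**Figure D4:**
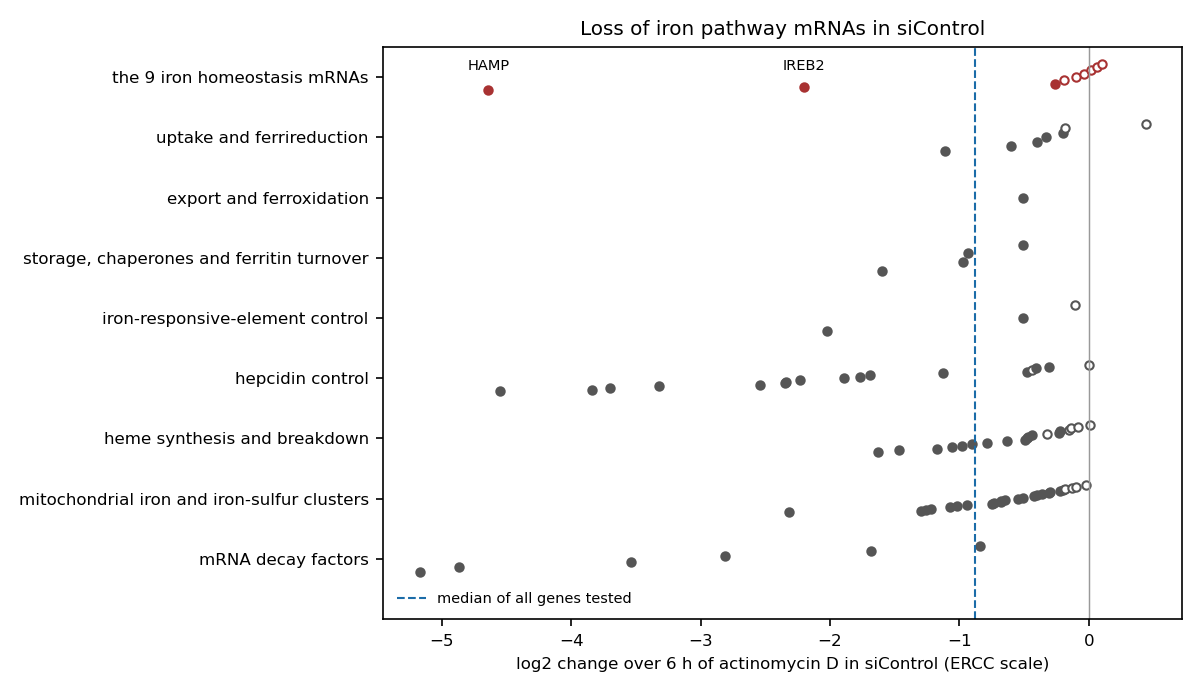
Log2 change over 6 h of actinomycin D in siControl (horizontal axis, ERCC scale), with 1 point per gene, for the 9 members and for 8 lists of other iron pathway genes, filled for an adjusted p under 0.05 and open otherwise. The dashed line marks the median of all genes tested (-0.88), and HAMP (-4.64) and IREB2 (-2.20) lie to its left while the other 7 members lie between -0.26 and 0.10.

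Last, the genes whose ERCC-scaled log2 level followed each member most closely over the 12 group means were listed by Pearson correlation, out of 9745 genes that averaged 5 CPM or more. These 12 points share the time course and their libraries, so the values are descriptive. IREB2 was followed most closely by EHMT1 (0.998) and TFB1M (0.998), HAMP by ZFAND5 (0.999) and FASTKD3 (0.998), and FTL by the acute phase proteins ORM2 (0.984) and ORM1 (0.981). FTH1 was followed by FBXO2 (0.973), TFR2 by MRPL11 (0.965), TF by PRDX4 (0.979), ACO1 by TMCO3 (0.966) and CP by PEA15 (0.982). TFRC had the least close match, RPL9 at 0.877.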

How the data were processed

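The authors trimmed single-end reads with Trimmomatic 0.39, aligned them to hg38 with HISAT2 2.1.0 and counted them with HTSeq on GENCODE v29. The deposited values are raw read counts per gene. The paper describes a stranded library kit and alignment set for strand, but the strand and multi-mapping settings of the counting are not given in the sources used here. Summary rows that name no gene (13.55% to 17.06% of each total) and 45 pseudoautosomal Y rows were not used, and METTL1 libraries are not analysed here. Symbols, positions and lengths came from GENCODE v44.

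edgeR 4.0.16 (quasi-likelihood, R 4.3.3) was used, with 12 group means and TMM scaling for levels, and an intercept and slope per condition with ERCC scaling for decay. SEs were derived from the F statistic. Tests were two-sided, with Benjamini-Hochberg adjustment at 0.05. Half-lifetime was ln2/K, with K the mean of the rates from 0 to 3 h and from 0 to 6 h.

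Members and pathway lists were chosen with earlier results of these data known. Of other pathway genes, the 3 called genes with the largest differences in each 0 h comparison, and the 3 with the largest and the 3 with the smallest loss in siControl, were named. Other pathway genes were named after their values were seen, because their list held few calls, and FBXL5 for its function.

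Alternatives were other scalings, other count filters, DESeq2 1.42.0, narrower fits, a replicate block and fits without each library. Depth limited HAMP most. No pair of replicates was within sampling noise (chi-square over degrees of freedom 3.24 to 8.48). The fits were tested on simulated data. Some items are not reported here.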

Additional observations from a re-analysis of the deposited data

Results flagged for a closer look

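These results stood out because effects of different knockdowns, each against siControl at 0 h, differed when the difference itself was tested (edgeR, TMM scale, adjusted over 13136 genes). Groups of 2 libraries are too small for a test of outlying samples.

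CP differed in all 3 pairs. It was lower in siIGF2BP1 than in siIGF2BP2 by a log2 difference of -0.62 (adjusted p = 1.68e-12) and than in siIGF2BP3 by -0.26 (adjusted p = 0.00031), and higher in siIGF2BP2 than in siIGF2BP3 by 0.37 (adjusted p = 7.82e-07). Both libraries of each group showed these directions. FTL was higher in siIGF2BP1 than in siIGF2BP2 (0.15, adjusted p = 2.76e-06) and siIGF2BP3 (0.18, adjusted p = 5.72e-08), and FTH1 likewise (0.15, adjusted p = 3.68e-06, and 0.19, adjusted p = 1.38e-07). ACO1 (0.16, adjusted p = 0.0146), TFRC (0.09, adjusted p = 0.0439) and TF (0.08, adjusted p = 0.0275) were higher in siIGF2BP1 than in siIGF2BP3. On the ERCC scale only the CP differences among these were called.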

How the results depend on the processing

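Each called difference in level was refitted more than once, and the counts here are of refits. With each library left out in turn, 153 of 224 refits kept the call, 71 lost it and 0 changed sign. Under the other alternatives 346 of 392 refits kept it, 40 lost it and 6 changed sign. Depth limits HAMP most, with 29 to 62 reads per library at 6 h. The cause of the changes was not tested.

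ERCC scaling turned the sign, against siControl at 6 h, of TFRC to 0.06 (siIGF2BP1), 0.12 (siIGF2BP2) and 0.13 (siIGF2BP3), and in siIGF2BP3 of FTH1 to 0.28, TF to 0.26, ACO1 to 0.27 and CP to 0.08. Between siIGF2BP1 and siIGF2BP3 at 0 h it turned TFRC to -0.02 and TF to -0.03. On that scale 2 members were called in each knockdown at 0 h (4.94%, 5.57% and 3.59% of all genes). At 3 h 4 were called in siIGF2BP1 (8.95% of all genes) and 2 in siIGF2BP2 (6.84%). At 6 h 8 were called in siIGF2BP2 (49.4% of all genes). Between siIGF2BP1 and siIGF2BP2 (12.1% of all genes) or siIGF2BP3 (6.66%) 1 was called.

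TMM in place of ERCC scaling turned slopes positive. In siControl TFRC became 0.77, TFR2 0.83, ACO1 0.61 and CP 0.68, with library-size scaling 0.45, 0.51, 0.29 and 0.36. ACO1 became 0.6, 0.6 and 0.58 in siIGF2BP1, siIGF2BP2 and siIGF2BP3 (library size 0.3, 0.32 and 0.29), and CP in siIGF2BP1 0.59 (0.29). With either scaling all 9 members had called slopes in every condition. Of all genes, 73.5% to 75% had called slopes with TMM and 72.1% to 73.4% with library size. TMM late losses were 0.39 for FTL, 0.35 for FTH1, 0.31 for TFRC and 0.28 for TFR2. They were 0.34 for TF, 0.24 for ACO1 and 0.36 for CP. TMM early losses were 0.37 for ACO1 and 0.32 for CP. With TMM 9 members were called in the early loss (69.1% of all genes) and in the late loss (47.1%). Half-lifetimes under TMM were 1.39 h for HAMP and 4.57 h for IREB2 in siControl.

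Between siIGF2BP1 and siIGF2BP2, DESeq2 called 5 members (20.1% of all genes) and a fit of only those groups 6 (25.3%). Fits of only the groups compared gave 2 members in siIGF2BP3 at 6 h (8.35% of all genes) and 3 slopes in siIGF2BP2 (68.8%). With no filter (3.78% of all genes called), or a CPM of at least 5 (14.8%), 3 members were called in siIGF2BP2 at 0 h. The change from 0 h to 6 h alone gave 1 slope difference in siIGF2BP1 (0.655% of all genes). Lengths of coding sequence were an alternative chosen after seeing the data.

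Without 1 library, members called at 0 h numbered 3 to 5 in siIGF2BP1, 1 to 3 in siIGF2BP2 and 1 to 4 in siIGF2BP3, at 3 h 4 to 6, 3 to 4 and 2 to 4, and at 6 h 5 to 6, 3 to 4 and 2 to 3. Between siIGF2BP1 and siIGF2BP3 there were 3 to 5. Called slopes numbered 2 to 5 in siControl, siIGF2BP1 and siIGF2BP2 and 3 to 5 in siIGF2BP3, early losses 2 to 6 and late losses 2 to 3.

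Time points of 1 siRNA can come from the same transfected plate, but the labels do not tie replicate numbers to plates. Correlations of replicate differences were -0.04 to 0.18 over 66 pairs of groups and -0.01 to 0.14 between time points of 1 condition, so the numbers were not taken to pair the samples. With the replicate block 6, 5 and 4 members were called at 0 h in the 3 knockdowns (IGF2BP1, IGF2BP2, IGF2BP3), as without it. The block called 16.6%, 12.8% and 10% of all genes there. In siControl it gave 4 called slopes of members against 3, and 80.7% of all genes against 80.6%.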
